A study of Mus musculus with 8 samples.

Results

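The loss of TIGAR was compared with the wild type across the whole set of heart samples, so that a gene was described by how its level in the knockout compared with the wild type in 4 regions at once. All 8 of the 8 libraries of the series entered the comparison. It paired 4 libraries of mice with whole-body TIGAR knockout (TKO) with 4 libraries of wild type (WT) mice, 1 of each genotype for the left ventricle, the infarct zone, the border zone and the remote zone. Levels are given as CPM on the TMM scale, that is, counts scaled to one fixed library size after each library total was multiplied by its TMM factor. The factors were 1.545 and 1.259 for the WT and TKO infarct zones and between 0.8659 and 0.9553 for the other libraries, so infarct levels are lower than counts over the plain total. A mean of 1 CPM or more over the libraries was required, which left 12999 of the 16994 genes deposited, and 12697 of these were annotated as protein coding and are described here as coding genes.

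The 3 zones came from hearts of male mice in which the left anterior descending coronary artery had been tied permanently at 16 weeks of age, and the left ventricle samples carry no zone in their labels. The time from ligation to the RNA samples, the line from which the TKO mice were derived and the strain of the WT mice were not given in the sources used here. RNA of 3 mice per genotype was pooled for the infarct zone. The number of mice behind the other libraries, and whether the zones were cut from the same hearts, were not given. The 4 regions are therefore not independent replicates of mice. A p-value below weighs the size of the TKO to WT ratio against its spread between regions only, and measures no spread between mice. The libraries held between 27429240 and 33799249 estimated counts. Where 4 values of a genotype follow each other, they are those of the left ventricle, the infarct zone, the border zone and the remote zone, in that order.

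TIGAR is an enzyme that lowers fructose-2,6-bisphosphate, the strongest activator of phosphofructokinase, and thereby slows glycolysis and directs glucose toward the pentose phosphate pathway. In heart muscle, which draws most of its energy from fatty acids burnt in mitochondria, it has also been tied to the removal of damaged mitochondria by mitophagy. An infarct adds further cell types to the tissue, since leukocytes enter the dead muscle and fibroblasts replace it with scar. In such bulk samples, fewer cells of a type and less RNA per cell cannot be told apart.

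Across the 4 regions, few coding genes passed the test between genotypes. Tigar itself was lower in TKO, and so were 4 genes of white blood cells (Ptprc, Cd53, Coro1a and Fcgr2b), the complement gene Cfb and the muscle genes Mybpc1 and Ryr1. Hmga1b, Dynlt1b, Tmem181a and Lrrc15 were higher. These 12 genes, 0.0945% of the coding genes tested, passed an adjusted p of 0.05 in edgeR's quasi-likelihood test with region as a block, 4 of them higher (0.0315%) and 8 lower (0.063%). Of the 12, 11 kept one direction in all regions, and Ryr1, without a count in either remote zone library, did not. Mybpc1 and Ryr1 reached the minimum of 1 CPM in the mean of the WT libraries alone and Hmga1b in that of the TKO libraries alone. Each of these 3 entered the test only through the genotype where it is high, so its call is given as a value and not as support for a difference. The other 9 called genes (3 higher, 6 lower) reached the minimum in both genotypes, as did 12387 of the coding genes tested. At an unadjusted p under 0.05 there were 2054 coding genes, and the Wald test of DESeq2 called 324 (2.55%), 120 higher and 204 lower. The count changed with the region left out. It was 75 without the left ventricle, 2 without the infarct zone, 1 without the border zone and 2 without the remote zone. Each of these fits also measured the spread over fewer regions, and the part of this in the lost calls was not tested. Dynlt1b was called each time, Tigar without the left ventricle or the infarct zone, and Hmga1b without the left ventricle or the remote zone.

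Hmga1b and Dynlt1b have near-identical copies elsewhere in the genome, and the sequences below are shown because they set what can be counted for each gene. Hmga1b encodes the same high-mobility-group protein as Hmga1, a small protein that binds the minor groove of AT-rich DNA. The coding sequence of Hmga1b (324 bases) differed from the Hmga1 isoform of the same length at 0 bases. The first 90 bases of both, with the start codon in capitals, were taken from GENCODE M21 (GRCm38), at chr11:120762889-120762978 on the plus strand for Hmga1b and chr17:27559569-27559658 on the plus strand for Hmga1.
Hmga1b and Hmga1: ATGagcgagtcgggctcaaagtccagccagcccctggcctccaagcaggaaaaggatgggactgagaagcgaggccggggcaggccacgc
Dynlt1b encodes a light chain of cytoplasmic dynein, the motor that carries cargo toward the minus end of microtubules. Its protein of 113 residues was identical to those of Dynlt1a, Dynlt1c and Dynlt1f. Over the 342 coding bases, Dynlt1b differed from each of the 3 copies by a single substitution, A21C, counted from the start codon with the base of Dynlt1b first. The first 27 coding bases are given with that base in capitals, at chr17:6430212-6430238 on the plus strand for Dynlt1b and, for Dynlt1c, at chr17:6601810-6601836 on the plus strand.
Dynlt1b: atggaagacttccaggcctcAgaggag
Dynlt1c: atggaagacttccaggcctcCgaggag
Of the 31-base words used to assign reads, 92.7% of those of Hmga1b and 86.9% of those of Dynlt1b also occurred in another gene of the table, against a median of 0.409% over all genes.

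Tigar, the deleted gene, was checked first. It lies on chromosome 6 of GRCm38 (chr6:127085116-127109557, minus strand). Its level was 71.8, 25.2, 72 and 65.7 CPM in WT and 1.97, 2.44, 2.67 and 2.89 CPM in TKO. All 4 TKO libraries were far below all 4 WT libraries, in the direction of their labels. The log2 ratio of TKO to WT averaged -4.42 ± 0.77 (SD over n = 4 regions), and the adjusted p was 0.006. Between 51 and 87 estimated counts of Tigar remained in each TKO library.

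**Figure D1:**
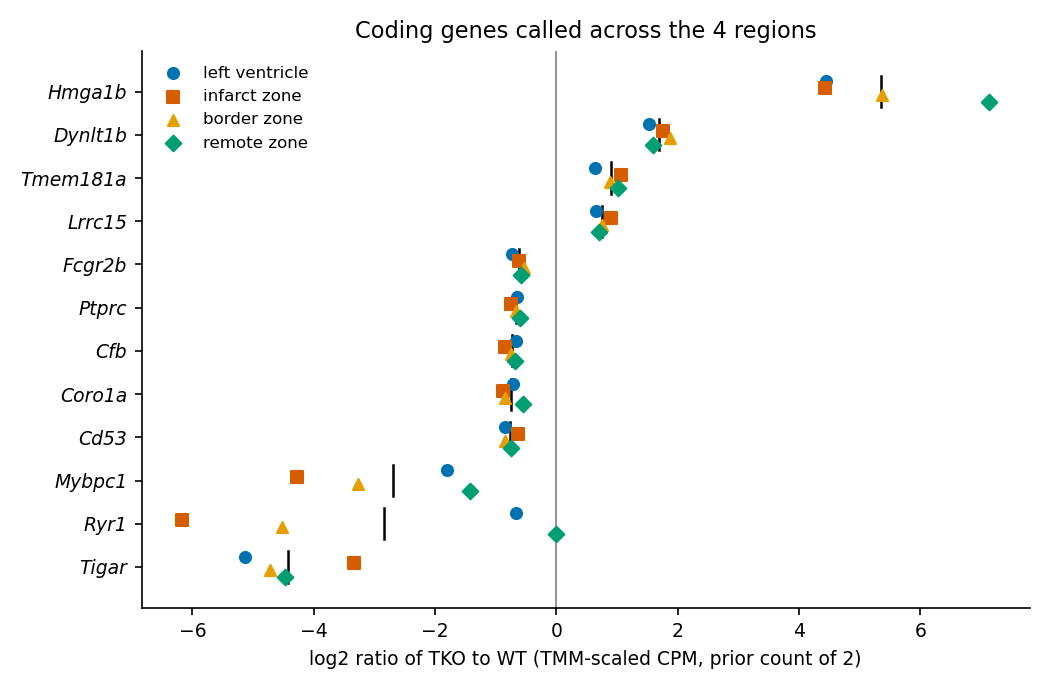
Log2 ratio of TKO to WT for the 12 coding genes called across the 4 regions. Each point is 1 region and the black bar the mean of the 4. The leukocyte genes and Cfb lie close together between -0.54 and -0.88, while the regions of Mybpc1 and Ryr1 are spread widely, and Ryr1 has a ratio of 0 in the remote zone, where neither library held a count.

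The leukocyte genes were lower in TKO in every region by a like amount. Ptprc encodes CD45, the tyrosine phosphatase carried by nearly all nucleated blood cells. It stood at 10.3, 62.4, 19.5 and 14.8 CPM in WT and at 6.57, 37.4, 12.3 and 9.74 CPM in TKO. The infarct zone held the highest level in both genotypes, and within each region the TKO library was the lower. The log2 ratio averaged -0.66 ± 0.06 (SD, n = 4 regions), a fold of 0.629, with an adjusted p of 0.0431.

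Cd53, a tetraspanin of leukocytes, read 7.38, 31, 12.6 and 9.51 CPM in WT and 4.1, 20.1, 6.99 and 5.69 in TKO, in the same order of regions. Coro1a, which encodes an actin-binding protein of blood cells, read 10.9, 53.5, 17.9 and 12.8 CPM in WT and 6.57, 29, 9.89 and 8.71 in TKO. Fcgr2b, the inhibitory receptor for the constant part of IgG, read 13.7, 56.2, 19.9 and 16.7 CPM in WT and 8.24, 36.6, 13.6 and 11.1 in TKO. Each of the 3 was lower in TKO in all regions. Their mean log2 ratios were -0.76 ± 0.10, -0.75 ± 0.15 and -0.62 ± 0.08 (SD, n = 4 regions). The adjusted p was 0.0487 for Cd53 and for Coro1a and 0.0493 for Fcgr2b.

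Cfb encodes complement factor B, the protease of the alternative pathway. Its level was 4.57, 40.8, 13.2 and 8.19 CPM in WT and 2.86, 22.7, 7.9 and 5.09 in TKO. It was lower in TKO throughout, with a mean log2 ratio of -0.73 ± 0.08 (SD, n = 4 regions) and an adjusted p of 0.0431. Cfb and the 4 leukocyte genes passed the test by little, since their adjusted p lay between 0.0431 and 0.0493, and with the infarct, the border or the remote zone left out none of the 5 passed.

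Lrrc15 was nearly alike in level in the left ventricle, border zone and remote zone of a genotype. It encodes a leucine-rich repeat membrane protein known from activated fibroblasts. WT held 22.5, 5.82, 22.1 and 23.2 CPM and TKO 35.4, 10.9, 37.4 and 37.7. The lowest level lay in the infarct zone in both genotypes. TKO was higher in each region, with a mean log2 ratio of 0.75 ± 0.11 (SD, n = 4 regions) and an adjusted p of 0.0421. Without the infarct, the border or the remote zone it did not pass.

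**Figure D2:**
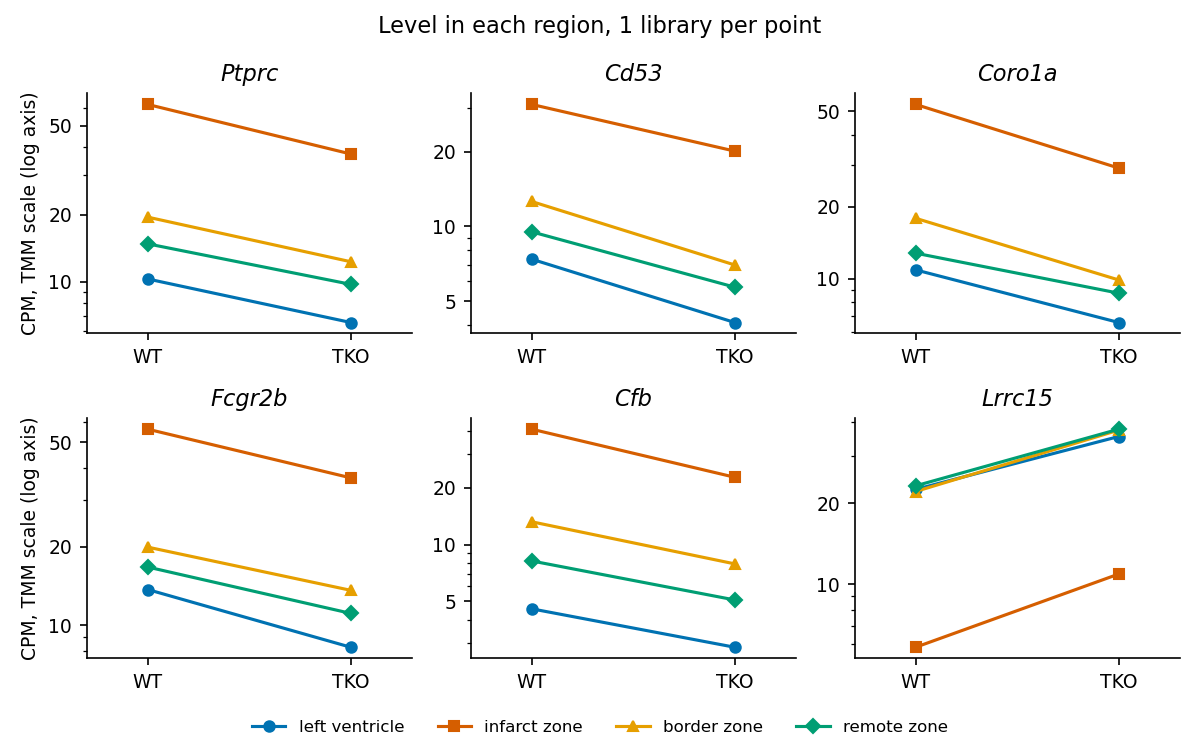
CPM on the TMM scale (log axis) of 6 called genes in WT and TKO, with 1 line per region joining its 2 libraries. The 5 falling genes have their highest level in the infarct zone of both genotypes, and Lrrc15, which rises in all 4 regions, has its lowest level there.

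Mybpc1 and Ryr1 had few counts, and their log2 ratios varied widely between regions, from -6.17 to 0.00 for Ryr1. Mybpc1 encodes the slow myosin-binding protein C of skeletal muscle and Ryr1 its ryanodine receptor calcium channel. The WT libraries held 8, 279, 47 and 6 counts of Mybpc1 in the left ventricle, infarct, border and remote zones, and the TKO libraries 1, 10, 3 and 1. Ryr1 had 1, 275, 43 and 0 counts in WT and 0, 1, 0 and 0 in TKO, so its level rests on the WT infarct and border zones alone. The adjusted p, 0.0431 for Mybpc1 and 0.0421 for Ryr1, bears the limit of the filter given above, and the fitted fold of Ryr1 depends on the count added to its zeros. Markers of skeletal muscle moved with both genes. The summed level of 9 such markers (the fast myosins Myh1, Myh2 and Myh4, Actn3, Pvalb, Mylpf, Tnnt3, Tnni2 and Tnnc2) was 4.97, 192, 38.5 and 4.15 CPM in WT and 3.56, 3.61, 4.08 and 4.29 in TKO. The part of skeletal muscle RNA in the calls of Mybpc1 and Ryr1 was not tested. Ryr1 was also not called by DESeq2 (adjusted p = 0.386, with edgeR alternatives between 0.00652 and 0.997).

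Hmga1b, which passed the filter through TKO alone, had the largest positive fold among the called coding genes. Its counts were 23, 30, 18 and 5 in the WT left ventricle, infarct, border and remote zones and 508, 591, 795 and 962 in TKO. Hmga1, the gene whose coding sequence it shares, held 348, 432, 296 and 278 counts in WT and 243, 166, 159 and 229 in TKO. The copy was thus the scarcer of the 2 in each WT library and the more abundant in each TKO library. Hmga1b had a mean log2 ratio of 5.35 ± 1.27 (SD, n = 4 regions) and an adjusted p of 0.0113, whereas Hmga1 had -0.66 ± 0.39 and 0.191. When both were counted as 1 gene, the sum was 371, 462, 314 and 283 counts in WT and 751, 757, 954 and 1191 in TKO, a log2 fold change of 1.45 with an adjusted p of 0.123.

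Dynlt1b stood at 16.1, 17.1, 16.4 and 19.3 CPM in WT and 46.8, 58, 60.9 and 58.6 in TKO. The lowest TKO library was above the highest WT library, and the ratio varied little between regions, at 1.69 ± 0.16 on the log2 scale (SD, n = 4 regions; adjusted p = 0.00296). Dynlt1b was called under each of the 12 alternatives in which it was refitted. The 3 copies with the same protein did not pass, with log2 fold changes of -0.05 for Dynlt1a, 0.13 for Dynlt1c and -0.18 for Dynlt1f. The sum of the 4 was 902, 1622, 1117 and 1216 counts in WT and 1598, 2941, 2379 and 2306 in TKO, 2.03-fold higher in TKO (adjusted p = 0.033). With Tigar, it was 1 of only 2 coding calls left when near-identical copies were summed. Called genes that share few words also fell out there, though with an unchanged log2 fold change. In edgeR, Ptprc then had -0.67 (adjusted p = 0.0732) and Lrrc15 0.75 (adjusted p = 0.068).

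Tmem181a, which encodes a transmembrane protein, lies beside the Dynlt1 genes (chr17:6256860-6308314). WT libraries held 26.1, 27.8, 24.4 and 26.1 CPM and TKO libraries 40.6, 58.4, 45.1 and 52.6. Again the groups did not overlap, and the mean log2 ratio was 0.90 ± 0.19 (SD, n = 4 regions; adjusted p = 0.0431). Summed with Tmem181b-ps and Tmem181c-ps, the family was 2.09-fold higher in TKO, with an adjusted p of 0.068.

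**Figure D3:**
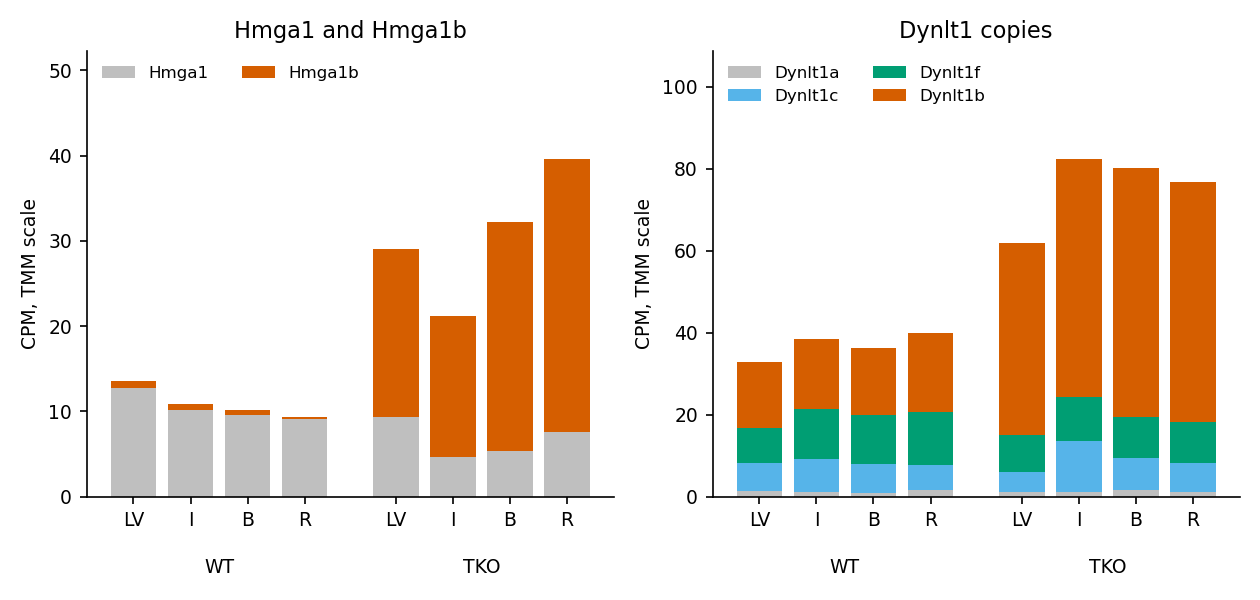
Stacked CPM (TMM scale) of Hmga1 with Hmga1b, and of the 4 Dynlt1 copies, in the left ventricle (LV), infarct (I), border (B) and remote (R) zone of each genotype, 1 library per bar. Hmga1b is a thin layer in WT and the larger layer in TKO, and the Dynlt1b layer is larger in each TKO bar while the other Dynlt1 layers change little.

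Pseudogenes made up the 6 noncoding calls, all higher in TKO, and 4 of them reached 1 CPM in TKO alone. They shared between 56.9% and 97% of their 31-base words with another gene. Rps2-ps10 rose from 148, 217, 96 and 97 counts in WT to 2306, 3513, 4364 and 4429 in TKO, and Atp6v0c-ps2 from 2, 13, 9 and 5 to 220, 542, 403 and 453. Summed with their copies, neither family was called, at a log2 fold change of 0.20 for Rps2 (adjusted p = 0.394) and -0.14 for Atp6v0c (adjusted p = 0.505). Rnps1-ps behaved alike, at 5.49 alone and 0.08 when summed with Rnps1. The source genes Atp6v0c (chr17:24163866-24169702), Rnps1 (chr17:24414565-24425901), Rps2 (chr17:24718116-24721929) and Hmga1 (chr17:27556497-27563674) all lie on chromosome 17, and their copies lie on other chromosomes. The reads were not used here, and whether sequence differences between the strains of the mice on chromosome 17 changed how reads were assigned between these genes and their copies was not tested. The levels of Hmga1b and of the pseudogenes are therefore the counts assigned to them, which need not be transcripts of these copies. Rps7-ps3 was at 0 in the 4 WT libraries and at 2011, 0, 10 and 0 in TKO. Its source gene, Rps7, read 754 counts in the TKO left ventricle and between 5704 and 10221 in the other libraries. Rps7-ps3 therefore rests on 1 library.

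Direction alone was kept by many more genes than passed the test. Of the coding genes, 1671 (13.2%) were higher in TKO in all 4 regions and 1714 (13.5%) were lower, whatever the size of the ratio. The median log2 ratio of coding genes lay between -0.012 and 0.009 in each region. Scaling by total counts shifted that median to -0.28 in the infarct zone and -0.10 in the border zone, and the split became 875 higher and 2501 lower, so directions are given relative to TMM scaling and, for each list, with the count under total counts beside them. At least a 1.5-fold ratio in every region was reached by 15 higher (0.118%) and 51 lower genes (0.402%). Of these 66, 9 were also called by edgeR. Of the 66, 9 had 3 or fewer counts in at least 1 library, and 8 shared at least 20% of their 31-base words with other genes. In 21 of the 66, the minimum of 1 CPM was reached in the mean of 1 genotype only.

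Macrophage and lymphocyte genes had the largest shares with one direction among the lists compared. Of 35 macrophage and monocyte genes tested, 24 (68.6%) were lower in TKO in all 4 regions and 0 were higher, against 13.5% and 13.2% of all coding genes, and 24 and 0 were also counted with total counts. Of the 33 members that reached 1 CPM in both genotypes, 23 were lower. Their median log2 fold change was -0.57, where that of all coding genes was -0.00. Ptprc was the 1 member called by edgeR. DESeq2 called 14 of the 35, all lower, against 204 of all 12697 coding genes called lower. The summed level of the list was 880, 3703, 1317 and 1166 CPM in WT and 619, 2524, 955 and 789 in TKO. The TKO to WT ratio of these sums was 0.703, 0.682, 0.725 and 0.676, nearly the same in the left ventricle as in the 3 zones of infarcted hearts. Of the defining markers, Csf1r, the receptor for macrophage colony-stimulating factor, read 43.3, 130, 60.3 and 57.4 CPM in WT and 34.8, 102, 49.8 and 45.1 in TKO. Adgre1, which encodes F4/80, read 15.1, 58.3, 21.5 and 18.9 in WT and 12.7, 45.6, 17.8 and 15.1 in TKO. Both were lower in TKO in all regions without passing the test (adjusted p = 0.17 and 0.173). Cd68 was not of one direction, since its log2 ratio was 0.07 in the left ventricle and between -0.46 and -0.72 in the zones.

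Mpeg1, which encodes the pore-forming perforin-2 of macrophages, was at least 1.5-fold lower in every region. It read 24.1, 177, 59.7 and 42 CPM in WT and 15.9, 107, 28.4 and 19.2 in TKO, with an adjusted p of 0.0716. Cathepsin S, encoded by Ctss, read 23.2, 154, 52.1 and 37.9 CPM in WT and 17.5, 88.7, 26.7 and 21.6 in TKO, with an adjusted p of 0.106. The osteopontin gene Spp1 read 16.4, 104, 29.2 and 36.7 CPM in WT and 8.39, 52.9, 19.6 and 10.1 in TKO. All 3 were lower in each region, and none passed the test.

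Of 13 lymphocyte genes tested, 9 (69.2%) were lower in all regions and 0 were higher, with a median of -0.60 and with 9 and 0 under total counts. Of the 10 that reached 1 CPM in both genotypes, 7 were lower. The B cell receptor genes Cd79a and Cd79b were at least 1.5-fold lower in every region. The log2 ratio of Cd79b was lowest in the left ventricle, at -2.63, against -0.82, -1.42 and -1.05 in the infarct, border and remote zones. The T cell gene Cd8a did not share the direction, with -1.04 in the left ventricle and 0.18, 0.64 and 0.21 in the zones. Of 9 adipocyte genes tested, 2 (22.2%) were lower in all regions and 0 higher, against 13.5% and 13.2% of all coding genes (3 and 0 under total counts). The TKO to WT ratio of the summed level of the 14 listed was 0.815 in the left ventricle and 1.64, 1.3 and 1.19 in the zones. Adipoq and Car3, genes of fat tissue, moved with Cd79b in the left ventricle. Adipoq, the gene of the hormone adiponectin, read 13.5 CPM in the WT and 0.232 in the TKO left ventricle (log2 ratio -5.52, and between -0.65 and -1.04 in the zones), and Car3, a carbonic anhydrase abundant in fat, read 62.2 and 1.2 (-5.62). The part of fat tissue in the left ventricle ratios was not tested. Neutrophil and mast cell genes had 4 of 8 lower and 0 higher (5 and 0 under total counts), among them the chemokine receptor Cxcr2, whose log2 ratios were -1.11, -0.87, -1.22 and -1.43. EdgeR called none of the lymphocyte or neutrophil genes. DESeq2 called 2 and 4 of them, all lower, against 204 of all 12697 coding genes called lower. Among 18 class I and class II MHC genes the direction was mixed, with 7 lower and 2 higher (8 and 2 under total counts). H2-Aa and H2-Ab1, which present antigen on myeloid and B cells, had mean log2 ratios of -0.73 and -0.67, and the class I-like genes H2-Q6 and H2-Q7 had 0.49 and 0.41.

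Matrix genes of fibroblasts leaned the same way. Of 56 tested, 22 (39.3%) were lower in TKO in all regions and 0 higher, with 26 and 0 under total counts, and their median log2 fold change was -0.43. DESeq2 called 17 of the 56, all lower, against 204 of all 12697 coding genes called lower, and edgeR called 0. The summed level of the list was 3918 CPM in the WT and 3932 in the TKO left ventricle, a ratio of 1. In the infarct, border and remote zones the TKO to WT ratio of the sums was 0.785, 0.617 and 0.742. With the left ventricle left out, 49 of the 56 were lower in each zone, against 3360 of the 12697 coding genes. Lox encodes lysyl oxidase, which cross-links collagen and elastin. It read 10.5, 160, 41.2 and 13.3 CPM in WT and 3.67, 96.8, 19.4 and 5.55 in TKO, a mean log2 ratio of -1.14 ± 0.33 (SD, n = 4 regions; adjusted p = 0.0634). Periostin, encoded by Postn, had log2 ratios of -0.31 and -0.18 in the left ventricle and infarct zone and of -1.57 and -1.59 in the border and remote zones. Its direction was thus shared by the regions and its size was not. Endothelial genes, as a comparison, had 1 of 24 higher and 2 lower (0 and 3 under total counts), and Pecam1 read between 142 and 161 CPM in all 8 libraries.

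Mitochondrial and muscle genes leaned the other way. Of 25 genes of the tricarboxylic acid cycle and pyruvate dehydrogenase, 15 (60%) were higher in TKO in all 4 regions and 0 lower, with 14 and 0 under total counts. Among 35 ventricular cardiomyocyte genes there were 18 (51.4%) higher and 0 lower, with 13 and 0 under total counts. Mitochondrial ribosomal proteins had 30 of 76 higher, nuclear subunits of oxidative phosphorylation 27 of 80, and fatty acid oxidation 16 of 47, with 0, 0 and 1 lower. Under total counts these became 24, 23 and 16 higher with 0, 0 and 2 lower. The median log2 fold changes of the 5 lists were 0.36, 0.30, 0.21, 0.28 and 0.33. EdgeR called none of their members, and DESeq2 called 0, 2, 1, 2 and 0, all higher. DESeq2 called 120 of all 12697 coding genes higher, so these few calls are not read as a trait of the lists.

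The size of this difference depended on the region. By region, the TKO to WT ratio of summed levels was 0.997, 1.89, 1.23 and 1.13 for the tricarboxylic acid cycle list. The fatty acid oxidation list had 0.975, 1.9, 1.22 and 1.1, so neither sum was higher in the TKO left ventricle. Nuclear subunits of oxidative phosphorylation had 1.09, 1.72, 1.19 and 1.01, and mitochondrial ribosomal proteins 1.16, 1.42, 1.17 and 1. Dlst, a subunit of the 2-oxoglutarate dehydrogenase complex, read 544, 134, 400 and 443 CPM in WT and 603, 264, 532 and 533 in TKO. Its log2 ratio was 0.98 in the infarct zone and between 0.15 and 0.41 elsewhere, and the adjusted p was 0.26. Nkx2-5, a transcription factor that specifies heart muscle, read 59.2, 29.3, 57.4 and 69.5 CPM in WT and 80, 43.5, 74.6 and 81.8 in TKO, a mean log2 ratio of 0.40 ± 0.14 (SD, n = 4 regions; adjusted p = 0.164). The cardiomyocyte sum was 100000, 25519, 78972 and 85891 CPM in WT and 104246, 49066, 92503 and 94042 in TKO. Its ratio was 1.92 in the infarct zone and 1.04, 1.17 and 1.09 in the left ventricle, border and remote zones. Of the defining markers, Myh6 and Actn2 did not share the direction. Myh6 read 8933 CPM in the WT and 5952 in the TKO left ventricle and was higher in TKO in the 3 zones. The log2 ratio of Actn2 was -0.12 in the left ventricle and 0.97, 0.15 and 0.19 in the infarct, border and remote zones. The part of the mix of cell types in the lower leukocyte and higher mitochondrial levels was not tested.

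Of the pathways closest to TIGAR, glycolysis had 10 of 30 genes higher and 2 lower in all regions, 1 of the lower ones being Tigar itself, and 9 and 4 under total counts. Beta-enolase, encoded by Eno3, had log2 ratios of 0.23, 1.16, 0.51 and 0.18. The pentose phosphate and NADPH genes had 4 of 20 (20%) higher and 1 lower, near the 13.2% of all coding genes on the higher side, and 2 and 2 under total counts. The lower gene was G6pdx, whose enzyme feeds glucose into that pathway, at 10.7, 20.3, 11 and 10 CPM in WT and 9.05, 17, 8.07 and 7.75 in TKO (adjusted p = 0.192). Of 35 mitophagy genes, 9 (25.7%) were higher in all regions and 1 lower, and 8 and 4 under total counts. Mul1, a ubiquitin ligase of the outer mitochondrial membrane, had a mean log2 ratio of 0.29 ± 0.07 (SD, n = 4 regions; adjusted p = 0.189). No gene of these lists other than Tigar was called by edgeR. Of the 13 genes encoded in mitochondrial DNA, 1 kept one direction, and 0 under total counts.

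**Figure D4:**
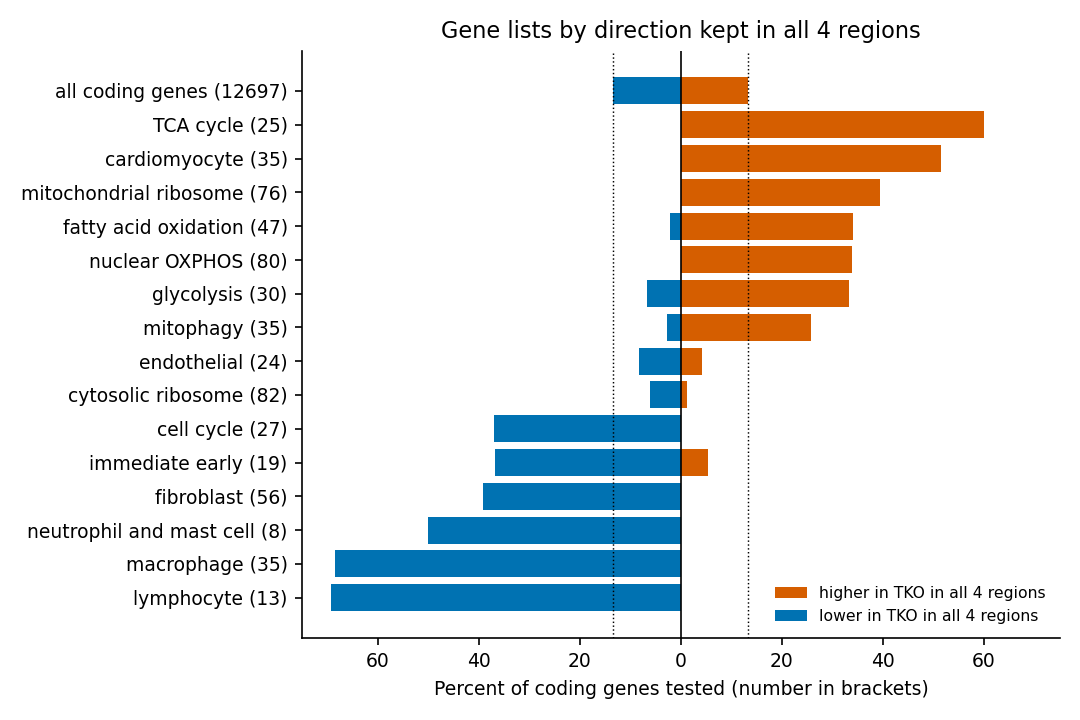
Percent of the coding genes tested in each list that were higher (right) or lower (left) in TKO in all 4 regions, with TMM scaling. Dotted lines mark the 13.2% and 13.5% of all coding genes. The macrophage and lymphocyte lists reach 68.6% and 69.2% on the lower side with none on the higher side, and the TCA cycle list 60% on the higher side with none on the lower.

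Nnt and the Y-linked genes were followed by name. Nnt, the mitochondrial transhydrogenase that makes NADPH, read 417, 52.2, 216 and 283 CPM in WT and 373, 155, 348 and 318 in TKO (adjusted p = 0.358). Of the Y-linked genes, Eif2s3y was higher in all 4 regions by at most 0.31 on the log2 scale, Ddx3y, Uty and Kdm5d were not of one direction, and none of the 4 was called. Under total counts, 3 of the 4 were lower in all regions and 1 was higher.

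Beyond the called genes, the 66 coding genes with at least a 1.5-fold ratio in each region named below were chosen after their values were seen. The higher genes included Lingo3, a leucine-rich repeat membrane protein, at 7.75, 1.28, 4.06 and 5.03 CPM in WT and 19.3, 3.17, 7.53 and 9.84 in TKO (adjusted p = 0.0525). Slc22a3, a transporter of organic cations, read 9.46, 2.04, 4.29 and 7.24 in WT and 15.8, 8.1, 15.5 and 16.6 in TKO (adjusted p = 0.131). Cyp1b1, a cytochrome P450, and Cd52, a small surface glycoprotein of leukocytes, were lower in each region and lay just outside the threshold with an adjusted p of 0.0525. Arg1, the arginase of macrophages and liver, had 9, 254, 84 and 8 counts in WT and 3, 45, 6 and 3 in TKO (adjusted p = 0.155). It reached the minimum of 1 CPM in the mean of the WT libraries alone, so its counts are given as values and not as support for a difference. These genes keep one direction in 8 libraries, and the test did not call them.

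Around Tigar, the share of coding genes with one direction was higher than over the whole table. Within 10 Mb of its start, 55 of 137 coding genes (40.1%) kept one direction, against 28.2% on chromosome 6 and 26.7% of all. There 4 reached 1.5-fold in each region, namely Tigar, Ccnd2, Ndufa9 and Il17ra, and Tigar alone was called. Leukocyte and complement genes of this window were among those lower in all regions (Ptpn6, C3ar1, Clec4a1, Clec4d, Cd4, Lag3, C1ra and C1s1). Other leukocyte genes there (Cd163, Clec4e and Clec4n) were not of one direction, and Hdhd5 and Pex26 were higher in all regions. The part of leukocyte genes in the share of the window was not tested. Ccnd2 encodes cyclin D2, which drives cells out of the resting state, and starts 0.04 Mb from the start of Tigar. It read 75.7, 105, 144 and 124 CPM in WT and 47.7, 50.2, 45.7 and 44.5 in TKO, and the highest TKO library lay below the lowest WT library (adjusted p = 0.106). Ndufa9, a complex I subunit, had 36, 0, 0 and 97 counts in WT and 458, 95, 66 and 159 in TKO, a level listed at 0 in 2 heart libraries.

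By chromosome, the genes with at least 1.5-fold in each region were most frequent on chromosome 17, a pattern noticed after the values were seen and not tested. It held 10 of them among 604 coding genes (1.66%), against 66 of 12697 (0.52%) overall. Dynlt1b, Tmem181a and Slc22a3 were higher, and Rsph3a, Pkmyt1, E4f1, Gfer, Cfb, Runx2 and Cyp1b1 were lower. Dynlt1b, Rsph3a, Tmem181a and Gfer shared 86.9%, 59.4%, 39.3% and 23.5% of their 31-base words with other genes, so their counts are uncertain. Pkmyt1 reached the minimum of 1 CPM in the mean of the WT libraries alone. Gfer, which encodes a sulfhydryl oxidase that helps fold proteins between the mitochondrial membranes, had 268, 222, 173 and 235 counts in WT and 118, 32, 3 and 18 in TKO (chr17:24693187-24696156). E4f1, a zinc finger protein, read 7.38, 7.2, 5.56 and 5.4 CPM in WT and 2.94, 3.53, 2.73 and 1.16 in TKO (chr17:24443778-24470313). Neither passed the test (adjusted p = 0.182 and 0.146).

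**Figure D5:**
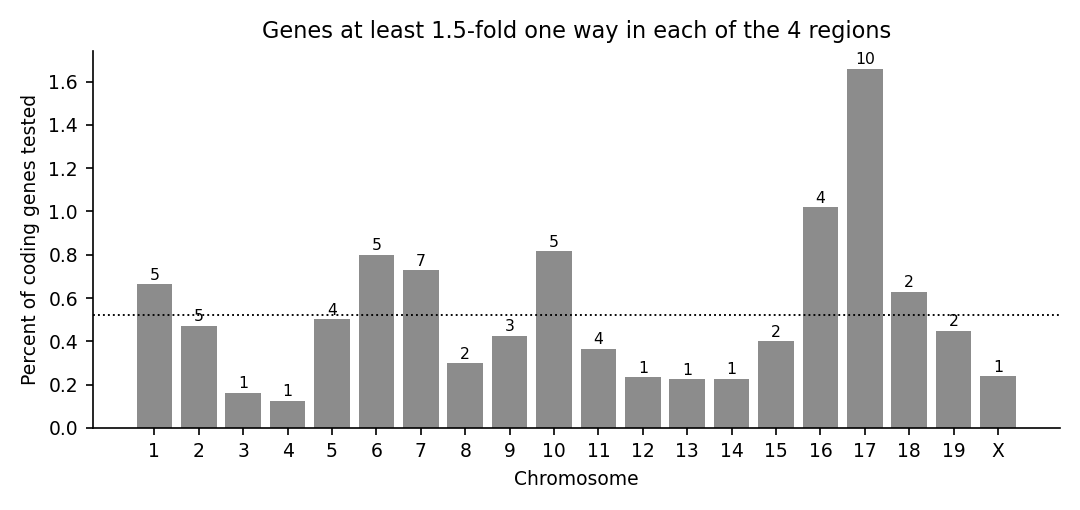
Percent of the coding genes tested on each chromosome that were at least 1.5-fold higher, or at least 1.5-fold lower, in TKO in each of the 4 regions; numbers above the bars are genes, and the dotted line is the 0.52% of all coding genes. Chromosome 17 has the tallest bar, with 10 genes and 1.66%.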

How the data were processed

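Total RNA of the 8 heart samples was isolated with a Direct-zol kit and sequenced as 1 library each. Reads were trimmed by the authors (Trim Galore 0.6.5), who quantified transcripts with kallisto 0.46 against the mm10 transcriptome and used tximport for gene sums. The authors deposited an estimated count per gene, without normalization and as whole numbers, for which the study names edgeR 3.34.1. Kallisto assigns reads by 31-base words, so counts of genes that share these words are uncertain. Nothing in the sources used here says whether strand was used.

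Gene types and positions were taken from GENCODE M21 (GRCm38). The counts were scaled by TMM and fitted in edgeR 4.0.16 by a quasi-likelihood model with region as a block and genotype as the tested term (3 residual degrees of freedom), with Benjamini-Hochberg adjustment over all 12999 genes whose mean reached 1 CPM. A gene was called at an adjusted p under 0.05. CPM are on the TMM scale. Log2 ratios per region used a prior count of 2, and the mean ± SD is over regions, 1 library per genotype each, so it holds no spread between mice. Values of 3 counts or fewer (0.0888 to 0.109 CPM before TMM scaling) are within the limit that a count of 0 allows, and this covers counting error only. Genes were named by a rule (Tigar, Nnt and 4 Y-linked genes, called coding genes of one direction, their proteins' copies of at least 90% identity by BLAST+ 2.17.0, and called genes of the lists or within 10 Mb of Tigar). Ryr1, the pseudogenes, list members that were not called and the 1.5-fold genes fall outside it and were chosen after their values were seen. The members and gene lists were chosen with earlier results of these data known. On simulated counts for this comparison over 12999 genes, edgeR called 32% of genes changed 1.5-fold and 99% of those changed 3-fold. It also called 14 of 12799 unchanged genes, and DESeq2 1.42.0 called 49%, 100% and 36. The changed genes were drawn from the better counted genes, with the same fold in each region and with libraries simulated as independent. These rates therefore do not cover genes of few counts or of unequal ratios between regions. Alternatives were other scalings, filters and tests, a fit without the block, leaving out each region, and, chosen after seeing the data, near-identical copies summed where at least 50% of the smaller gene's 31-base words were shared. No authors' comparison columns were used. Some genes that the rule names are not reported here.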

Additional observations from a re-analysis of the deposited data

Results flagged for a closer look

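For 3 of the genes followed by name, the left ventricle went one way and all 3 zones of the infarcted hearts the other; with 1 library per group, these differences were not tested. Nnt had a log2 ratio (TKO over WT) of -0.16 in the left ventricle and 0.17 to 1.56 in the zones. Dynlt1c had -0.51 and 0.17 to 0.63. Dynlt1f had 0.09 in the left ventricle and -0.16 to -0.38 in the zones. The 2 Dynlt1 genes share most of their coding sequence with Dynlt1b, and the part of read assignment in their values was not tested.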

How the results depend on the processing

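The number of coding genes called rested on the test and the region. Against 12 called (4 higher, 8 lower), total counts gave 46 (40 lower), no filter on low counts 7 (3 lower), DESeq2 324 (120 higher, 204 lower), the fit without the region block, which pairs the libraries of a region, 3 (2 higher, 1 lower), and near-identical copies summed, chosen after seeing the data, 2 (1 higher, 1 lower). DESeq2 size factors gave 5 lower calls. Leaving out 1 region at a time gave between 1 and 75 calls, of which 1 to 14 were higher and 0 to 61 lower, the largest without the left ventricle and the smallest without the border zone; the cause was not tested. DESeq2 called 11 of the 12 genes, all but Ryr1. The number keeping one direction was 3385 and between 4193 and 6573 with 3 regions in place of 4, as fewer regions must share a sign; the block and the test do not enter that number. Near 0, Ddx3y turned to 0.00, 0.01, 0.00 and 0.06 with DESeq2 size factors, no filter, DESeq2 and without the left ventricle, Uty to -0.07 with total counts and -0.05 without the infarct zone (up to 0.08 over the regions left out), Dynlt1c to -0.04 without the infarct zone (up to 0.34), and Dynlt1a to 0.05 and 0.07 without the left ventricle or the remote zone (down to -0.28). Summed copies turned Hmga1 to 1.45, Dynlt1a and Dynlt1f to 1.02, Atp6v0c-ps2 to -0.14 and Rps7-ps3 to -0.32, since each then carries its family's sum. No other direction turned among the named genes; of the 320 values of single genes under the alternatives, 77 lost their call and 4 gained one. One library per genotype and region limits every value here.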

Other observations

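Cell cycle genes, a group not described above, leaned lower in TKO. Of 27 tested, 10 (37%) were lower in all 4 regions and 0 higher, against 13.5% and 13.2% of all coding genes. Total counts gave 12 and 0, and edgeR called none. The proliferation marker Mki67 had log2 ratios of -0.91, -0.29, -0.60 and -0.59 in the left ventricle, infarct, border and remote zones. Immediate early genes had 7 of 19 (36.8%) lower and 1 higher (8 and 0 under total counts). Cytosolic ribosomal proteins had 5 of 82 (6.1%) lower and 1 (1.22%) higher (7 and 1 under total counts), both below the shares of all coding genes. Markers of tissue that does not belong to the ventricle stood out in single libraries. The skeletal muscle sum given above was 192 and 38.5 CPM in the infarct and border zones of WT and between 3.56 and 4.97 in the other 6 libraries. The summed level of 7 lung markers was 461 CPM in the infarct zone of TKO and 186 in that of WT, 39.3 in the remote zone of WT and between 1.97 and 7.96 in the other 5 libraries.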
